A study of Drosophila melanogaster with 6 samples.

Results

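The regions described here lie on chromosome arm 2L of Drosophila melanogaster, the left arm of its second chromosome, outside the heterochromatin next to the centromere. Peaks of 6 deposited lists were pooled, those that overlapped were merged, and merged regions on 2L that ended below base 22000000 (dm6) were kept. This gave 480 regions of 4538 on all chromosomes. A further 37 regions of 2L lay beyond the boundary. The last region inside it lay at 21967756 to 21968075, 6674 bp from CG2528, seen in 2 libraries. The first one outside lay at 22086752 to 22087198, 6014 bp from ttm3, and was seen in 3.

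Adult heads of wild-type flies (genotype WT) were profiled by MeDIP-seq, in which sheared DNA bound by a 5-methylcytosine antibody is sequenced beside an input library. The treatment labels were F3-0um for the 3 control libraries and F3-800um for the 3 lead libraries, a dose label of 0 and 800 um. The labels explain neither F3 nor how or when flies were exposed, and give no age, sex or number of heads per library. All 6 libraries come from the same tissue and genotype, and a peak list carries no marker by which the tissue could be checked.

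Fly DNA carries very little 5-methylcytosine, and the fly genome encodes Mt2, a relative of the vertebrate DNA methyltransferases that is best known for methylating transfer RNA. A peak marks DNA that the authors' list calls as enriched in that library and does not by itself show a methylated base. Arm 2L holds several well-known gene groups, among them the tandem array of histone genes near its base and long neuronal genes spread along it.

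Whether peaks on 2L differ between lead and control heads was asked first. Peaks on 2L numbered 181, 256 and 234 in control replicates 1, 2 and 3, and 347, 147 and 272 in lead replicates 1, 2 and 3. The groups overlapped, and lead held both the highest and the lowest library. Lead averaged 255.3 ± 101 and control 223.7 ± 38.6 peaks (SD, n = 3). The difference of 31.7 was smaller than the SD of lead (two-sided exact permutation test, p = 0.6). Without lead replicate 1 the difference turned to -14.2, and without lead replicate 2 it was 85.8. It was 47.8 without control replicate 2 and 10.3 without control replicate 1. Whole lists held 1379 to 3522 peaks, and lead replicates 1 and 2 were the longest and the shortest. Read depth cannot be read from these lists.

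Peaks covered 65.5, 85.3 and 82.9 kb of 2L in control and 117.3, 52.8 and 97.0 kb in lead replicates 1 to 3. Again the highest and the lowest value were both lead libraries. The means were 89.05 ± 33.0 kb in lead and 77.9 ± 10.8 kb in control (SD, n = 3; exact permutation p = 0.6). Without lead replicates 1 and 2 the difference of 11.1 kb was -2.99 and 29.2 kb, and without control replicate 1 and lead replicate 3 it was 4.92 and 7.15 kb.

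**Figure D1:**
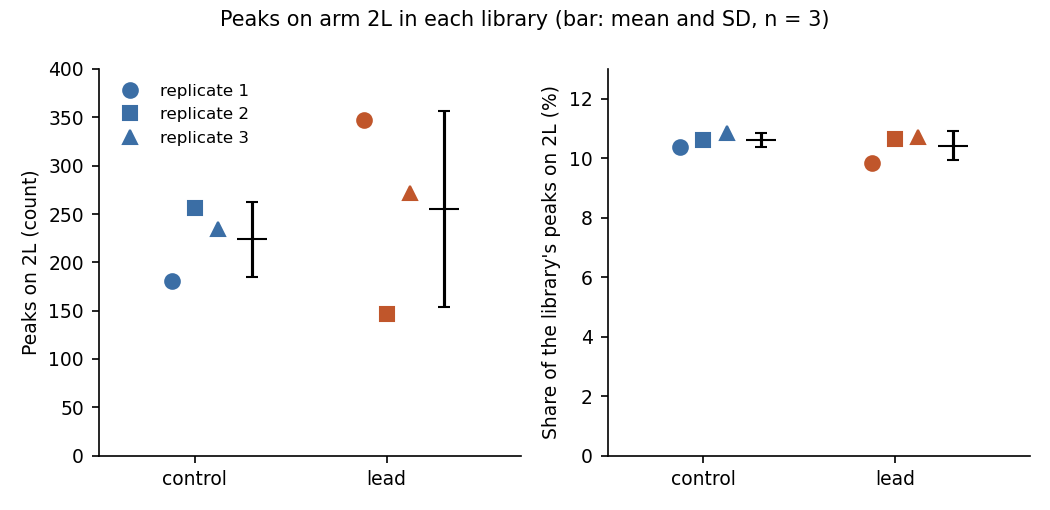
Left, number of peaks on 2L in each library; right, the percentage of the library's peaks that lie on 2L. Points are libraries, and the bar is the group mean with its SD (n = 3). Counts run from 147 to 347 and both extremes are lead libraries, whereas shares lie between 9.85% and 10.8%.

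As a share of the list, 2L varied little. It took 10.4%, 10.6% and 10.8% of peaks in control replicates 1, 2 and 3 and 9.85%, 10.7% and 10.7% in lead replicates 1, 2 and 3. Lead replicate 1 was lowest, with a 95% Wilson interval of 8.91 to 10.9% that covers counting error only and overlaps those of all other libraries. Means were 10.4% ± 0.486 in lead and 10.6% ± 0.241 in control (SD, n = 3), a difference of -0.194 points (exact permutation p = 0.7). The difference turned to 0.0861 points without lead replicate 1 and to 0.0779 when peaks on X were left out of every list, and was -0.701 with the 1379 highest peaks of each list. It was -0.314 without control replicate 1, -0.0731 without control replicate 3, and -0.318 and -0.350 without lead replicates 2 and 3. With X left out, lead replicate 1 had the highest share, 14.5%, against 13.5% to 14.4% in the other 5 libraries. Adjusted over the 5 group comparisons of this kind (number, covered length, share, score percentile and share in genes), every p was 0.7.

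The overlap of 2L peaks between libraries was no larger within a group than between groups. Overlap was measured as the Jaccard index, shared bases over all bases that a pair of libraries covers. It averaged 0.463 for pairs of one group and 0.466 for mixed pairs (exact permutation test, one-sided, 10 splits, p = 0.6). It averaged 0.434 for lead pairs and 0.492 for control pairs. Both the lowest and the highest of the 15 pairs were lead pairs, replicates 1 and 2 with 0.382 and replicates 1 and 3 with 0.516. Unequal covered lengths limit the index of a pair, and lead replicates 1 and 2 covered 117.3 and 52.8 kb. A low index of such a pair is thus not by itself poor agreement. Leaving out lead replicate 1, 2 or 3 turned the difference of -0.00321 to 0.00455, 0.0264 or 0.00358.

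Peaks were sparser on 2L than on 3L, 3R and X, in every library. Arm 2R was not compared here. Density on 2L was 10.9 ± 3.21 peaks per Mb (SD, n = 6 libraries), with 15.2 ± 4.24 on 3L (to 23 Mb), 13.4 ± 3.92 on 3R (4 to 32 Mb) and 25.1 ± 12.8 on X (to 22 Mb). In control replicates 1, 2 and 3 it was 8.23, 11.6 and 10.6 per Mb on 2L, and in lead replicates 1, 2 and 3 it was 15.8, 6.68 and 12.4. The paired difference was -4.29 ± 1.04 from 3L, -2.46 ± 0.740 from 3R and -14.2 ± 9.91 from X (SD, n = 6), with 2L lower in 6 of 6 libraries each time. Each had an exact sign-flip permutation p of 0.0312, the smallest that 6 libraries allow, and the same value after adjustment over the 3 arms. With any 1 library left out the smallest p is 0.0625, so none could then pass, while the differences kept their sign.

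**Figure D2:**
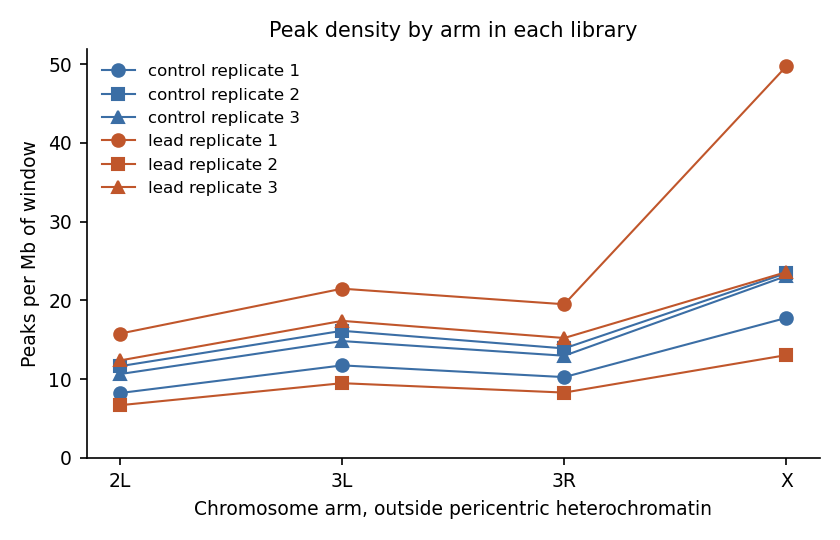
Peaks per Mb of each arm window in each library, one line per library. Every line has its lowest point at 2L; lead replicate 1 stands above the others on X, at 49.7 per Mb.

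The window of 2L held 157 genes per Mb, the highest of the 4, with 148, 150.1 and 119 on 3L, 3R and X. Genes covered 70.3% of it, the lowest of the 4, with 70.8%, 72.9% and 77.6% on the others. The part of either in peak density was not tested. Merged regions numbered 21.8 per Mb on 2L, 30.0 on 3L, 26.5 on 3R and 54.5 on X.

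Recurrence between libraries on 2L was near that of all regions. Of the 480, 81 (16.9%) had a peak in all 6 libraries, where 19.6% of all 4538 regions did, and 160 (33.3%) had a peak in a single library, where 35.5% of all regions did. Regions in 2, 3, 4 and 5 libraries numbered 85, 56, 58 and 40. Lead replicate 1 alone held 65 of the 160, lead replicate 3 held 39, and lead replicate 2 held 7. Control replicates 1, 2 and 3 held 10, 22 and 17. Of the 40 regions in 5 libraries, 18 lacked a peak only in lead replicate 2, the shortest list, and 10 only in control replicate 1, the next shortest. More lead than control libraries had a peak at 197 regions (41.04%) and fewer at 114 (23.8%), near the 42.4% and 21.8% of all 4538 regions, and as many at 169. Regions in a single library made up 111 of the 197, 65 of them in lead replicate 1, the longest list, and 49 of the 114.

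Scores in the deposited lists are the authors' own whole numbers of unstated meaning. They were used as ranks within a list: a percentile of 100 and place 1 are the highest score. Only the alternative cutoff of 47 used the same raw score in every list. Regions found in more libraries ranked higher. The median of a region's mean percentile was 19.5 for regions in 1 library, 26.7 for 2, 32.1 for 3, 42.3 for 4, 54.1 for 5 and 75.7 for all 6. Width went the same way, from a median of 237 bp for regions in 1 library to 412 bp for those in all 6, although merging more peaks also widens a region.

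**Figure D3:**
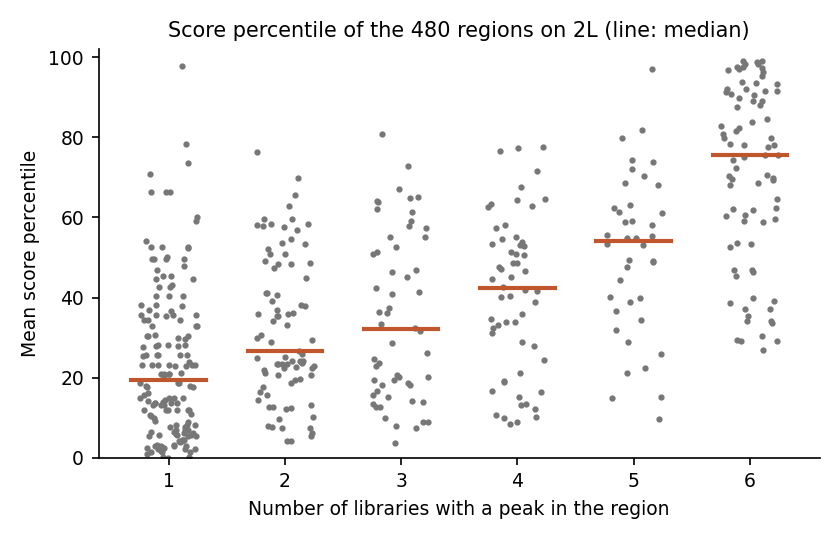
Each point is 1 of the 480 regions, at the number of libraries with a peak (horizontal, with random sideways spread) and its mean within-library score percentile (vertical); lines are medians. Medians climb from 19.5 to 75.7, and the points of neighbouring classes overlap widely.

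Within each list, the median percentile of 2L peaks was 51.8, 48.2 and 49.3 in control replicates 1, 2 and 3, and 44.7, 49.1 and 46.7 in lead replicates 1, 2 and 3. Only lead replicate 2 reached into the control range. Means were 46.8 ± 2.20 in lead and 49.8 ± 1.85 in control (SD, n = 3), a difference of -2.98 (exact permutation p = 0.2). Ranked again within the equally long lists of the 1379 highest peaks, it turned to 1.81 (exact permutation p = 0.4). Among peaks with a score of at least 47 it was 4.78 (exact permutation p = 0.1, the smallest possible here). The direction thus depended on which peaks were ranked. With all peaks, the difference was -1.91 without lead replicate 1 and -1.96 without control replicate 1.

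Peaks on 2L were absent from the very first places of each list but not scarce among the first 100. The best place of a 2L peak was between 17 and 21 in the 6 libraries. Of each library's first 100 places, 13 to 16 were on 2L, whose share of the whole lists was 9.85% to 10.8%. This difference was not tested. Scores above 10000 were held by 11 to 13 peaks per list and by 0 on 2L, where the highest score of a library was 718 to 999.

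Some regions held nearly the same high places in all 6 lists. Ordered by their lowest percentile in any library, the first was a region of 1843 bp at 626328 to 628170 in CG2839, within 1 kb of lectin-21Ca, which encodes a sugar-binding C-type lectin. Its places were 17, 21 and 17 in control and 18, 18 and 19 in lead replicates 1 to 3. Next was a region at 21424988 to 21425274 over His4:CG31611 and His3:CG31613, genes of the core histones H4 and H3, with places 18, 22 and 18 in control and 20, 19 and 20 in lead. The groups overlapped at both regions.

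The third region, at 19260118 to 19261149 in CG31797, held places 22 to 29. Plc21C, a phospholipase C of G-protein signalling, followed with a region at 330580 to 331184 and places 29 to 40, and had a further region in all 6 libraries at 327884 to 328593. Sgs1, a glue protein of the larval salivary gland, held both its regions in all 6 libraries. They lay at 4937982 to 4939353 (places 31 to 42) and at 4940409 to 4941079 (places 43 to 82), in a gene of 4015 bp.

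The 6th and 7th in this order were spen, a nuclear RNA-binding protein that acts in several signalling pathways, at 189561 to 190448 with places 37 to 70, and Hrb27C, a nuclear ribonucleoprotein of RNA processing, at 6926750 to 6927382 with places 38 to 87. After the second Sgs1 region, the last of the first 10 were ncm, a splicing factor, at 18445402 to 18445756 with places 60 to 103, and Muc30E, a mucin, with places 54 to 86. The Muc30E region, at 9897966 to 9902831, was the widest on 2L, 4866 bp in a gene of 5309 bp. Of these 10 regions, 10 overlapped an annotated gene.

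Other wide regions in all 6 libraries were 1769 bp at 14161291 to 14163059 in CG43332 and 1562 bp at 2661344 to 2662905, 2157 bp from Trf4. By the same order, the low end of the regions in all 6 libraries included one at 2774086 to 2774405 in Syt1, with percentiles of 19.0, 3.48 and 50.5 in control and 35.6, 25.2 and 40.7 in lead replicates 1 to 3. Also low were regions at 11491363 to 11491756, 4414 bp from sala, and at 21608736 to 21609325, 4907 bp from CG2201. Recurrence in all 6 libraries was thus not limited to high scores.

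The histone array carried 2 regions, each near one end of it. The list held 111 replication histone genes on 2L, of which 4 were in or within 1 kb of a peak. His2A:CG31618, His4:CG31611 and His3:CG31613 shared the region at 21424988 to 21425274. The fourth, His3:CG33866, had a peak at 21540991 to 21541233 in control replicate 2 alone, at place 56 of that list. It was the highest mean percentile, 97.7, of any region in 1 library. The copies of the array are near-identical, and how reads that match several copies were placed is not given in the sources used here, so the signal cannot be assigned to a copy.

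Regions that separated the groups completely were rare. Of 480 regions, 3 were lead-only (0.625%), that is, held by every lead library and by no control, where 20 of 4538 (0.441%) were over all chromosomes. A further 3 were control-only (0.625%), where 7 of 4538 (0.154%) were. No single region can pass a test here, since the smallest two-sided p of 3 libraries against 3 is 0.1.

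The lead-only regions lay in CG7299, CG42238 and ab, and all ranked low. That in CG7299, at 10684009 to 10684251, had percentiles of 18.6, 31.98 and 35.4 in lead replicates 1, 2 and 3. That in CG42238, at 21039963 to 21040212, had 33.0, 12.4 and 33.0. The region in ab, a zinc-finger transcription factor that shapes dendrites of sensory neurons, lay at 11228965 to 11229412 and had 0.483, 31.98 and 9.11.

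The control-only regions lay in Btk, a non-receptor tyrosine kinase, in Syt1, the calcium sensor of synaptic vesicle release, and in Lar, a receptor tyrosine phosphatase of axon guidance and synapse growth. The Btk region, at 8278333 to 8278618, had percentiles of 36.6, 10.4 and 48.2 in control replicates 1, 2 and 3. The Syt1 region, at 2790206 to 2790537, had 7.04, 8.39 and 42.7, and the Lar region, at 19658939 to 19659190, had 8.42, 33.0 and 5.68. All 6 of the lead-only and control-only regions stayed below the list median in every library that held them.

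Each of these genes except CG7299 also had peaks elsewhere. Btk had a region at 8287613 to 8287896 that 3 lead libraries and 1 control library held, so the gene as a whole was marked in all 6. Counted as genes, Syt1, Lar and CG42238 were also marked in all 6 libraries, and ab in 3 lead and 2 control libraries. The count of 3 lead-only regions was 23 without lead replicate 2, 7 without control replicate 2, and 6 without control replicate 1, control replicate 3 or lead replicate 3. The count of 3 control-only regions rose to 11 or 8 when control replicate 1 or 2 was left out, and to 9 or 5 when it was lead replicate 1 or 3. With equal numbers of peaks per list the counts were 0 and 2. With a score of at least 47, both were 0.

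The 81 regions in all 6 libraries allow their order to be compared between groups. Each region's place was taken among the 890 regions of the genome with a peak in all 6 libraries, as a percentile of 100. The 6 orders were alike over the 81 regions: Spearman's rho between pairs of libraries ran from 0.813 to 0.907, with means of 0.870 within and 0.868 between groups. This is a description over sites that share a library, with no test. All lead places lay above all control places at 6 regions (7.41%), where 5.39% of the 890 did, and below them at 3 (3.70%), where 7.75% did. The median difference over the 81 was 0.637 points.

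Of the 6 with lead above, the largest difference was in Bsg, an immunoglobulin-domain membrane protein. That region, at 8107840 to 8108192, had places of 44.4, 34.8 and 25.1 in control and 60.9, 59.6 and 57.2 in lead replicates 1 to 3. The others lay in wwk, 4907 bp from CG2201, in Vha68-1, a catalytic subunit of the vacuolar proton pump, in CG15140 and in Sgs1, with differences of 22.6, 17.2, 6.70, 3.52 and 1.65 points. Of the 3 with lead below, the region at 11806653 to 11807423 in crol, a zinc-finger transcription factor, had 51.9, 20.7 and 26.6 in control and 19.0, 6.80 and 7.58 in lead. The other two were the region 2157 bp from Trf4, with a difference of -20.7, and one at 2798758 to 2799250 in Syt1, with -6.97. These 9 regions were singled out after their values were seen.

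Peaks on 2L lay mostly in genes. Midpoints were in an annotated gene for 83.4%, 81.2% and 82.9% of 2L peaks in control replicates 1, 2 and 3, and for 82.4%, 84.4% and 84.2% in lead replicates 1, 2 and 3. The groups overlapped, with means of 82.5% ± 1.14 in control and 83.7% ± 1.07 in lead (SD, n = 3; exact permutation p = 0.3), and genes covered 70.3% of the window. The difference of 1.13 points fell to 0.490 without control replicate 2 and to 0.257 with the 1379 highest peaks of each list, and it was 1.75 without lead replicate 1. Of the 397 regions with a midpoint in a gene, 304 (76.6%) were more than 1 kb from the ends of every gene they lay in, as was 71.4% of the gene span. Strand and exons were not used here, so promoters and introns were not told apart.

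Beyond 1 kb of any gene lay 61 regions, and 26 were more than 5 kb away. Of these 26, 18 had a peak in 1 or 2 libraries and 2 in all 6. One of the latter lay at 1768046 to 1768480, 8953 bp from CG17650, with a mean percentile of 46.9, and the other at 9313256 to 9313543, 8249 bp from lncRNA:CR42844, with 69.5. A region at 20018134 to 20018404, 852 bp from CG43861, had the highest mean percentile, 97.1, of the regions in 5 libraries.

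Of 3447 genes on 2L, 333 (9.66%) had a peak in or within 1 kb in at least 1 library, where 12.2% of 17807 genes did over all chromosomes, and 97 (2.81%) had one in all 6, where 3.69% did. The 333 included 292 of 2620 protein-coding genes. Longer genes carried peaks more often. In the longest of 4 length classes of near-equal size, above 3408.5 bp, 215 of 862 genes (24.9%) had a peak, and in the 3 shorter classes, from the shortest up, 4.62%, 3.49% and 5.57% did. Median length was 8718 bp with and 1367.5 bp without a peak. A longer span gives more room for a peak, so the share of a gene group is to be read beside its length.

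Most marked genes held 1 region, 236 of 333, and 40 held 3 or more. nAChRalpha6, a subunit of the nicotinic acetylcholine receptor and the target of the insecticide spinosad, held the most, with 13 regions in or within 1 kb of its 92934 bp. This is 13.7 per 100 kb of the gene and its flanks, where 2L as a whole held 2.18. It had 5, 8 and 8 peaks in control and 12, 5 and 5 in lead replicates 1 to 3. Of its 13 regions, 3 had a peak in all 6 libraries, at 9801267 to 9801923, 9808003 to 9808349 and 9882081 to 9882556, with mean percentiles of 70.5, 39.97 and 90.6. The region at 9813835 to 9814161 was held by 3 control libraries and by lead replicate 1, and 4 regions towards the higher-coordinate end were in lead replicate 1 alone.

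**Figure D4:**
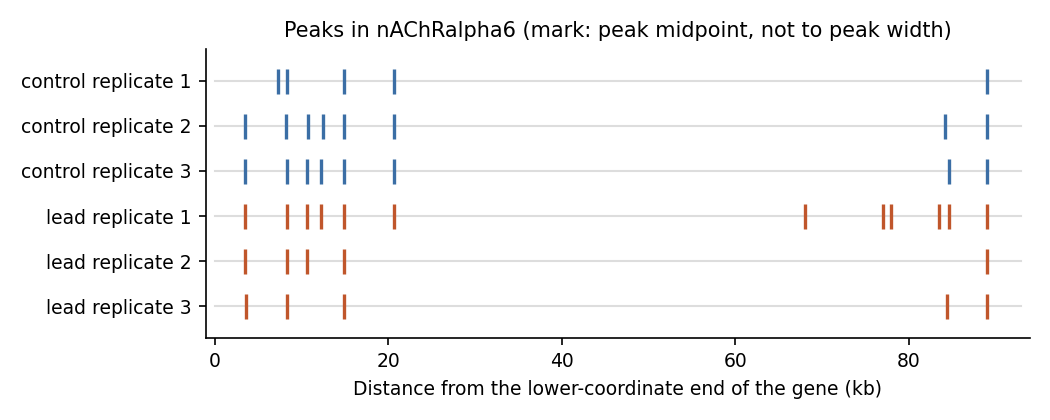
Midpoints of the peaks in nAChRalpha6 in each library, by distance in kb from the end of the gene with the lower coordinate. Marks line up between libraries near both ends of the gene, and the middle of the gene is empty in all 6 libraries.

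After it came bun, a TSC22-family transcription factor, and mtgo, a fibronectin-domain protein, with 9 regions each. lilli, a transcription elongation factor of the AF4/FMR2 family, and Snoo, a co-repressor that binds Smad proteins, held 8 each. CG46301, bru1, which represses translation of maternal messages, and Lar held 7 each. The peaks of lilli numbered 4, 3 and 4 in control and 5, 2 and 8 in lead replicates 1 to 3. Those of bru1 numbered 1, 3 and 2 in control and 6, 1 and 7 in lead, so the groups overlapped at both genes. All 8 genes had a peak in all 6 libraries. They were 56498 to 145447 bp long, and mtgo, bru1 and Lar had 0 regions shared by all 6.

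Counted as whole genes, CG7299 was the 1 lead-only gene of 2L (0.0290%), where 11 of 17807 genes (0.0618%) were lead-only, and 0 were control-only, where 1 of 17807 (0.00562%) was. The lead-only count was 14 without lead replicate 2, 4 without control replicate 2, and 2 without control replicate 1, control replicate 3 or lead replicate 3. The control-only count was 6 without lead replicate 1, and 2, 3 and 1 with control replicate 1, 2 or 3 left out. More lead than control libraries marked 111 of the 333 genes, fewer marked 61, and as many marked 161. As shares of the 3447 genes of 2L the first counts are 3.22% and 1.77%, where 4.34% and 2.27% of all 17807 genes were so marked. Per library 165, 213 and 199 genes of 2L were marked in control and 273, 135 and 228 in lead replicates 1 to 3.

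Regions were spread over the whole arm with local clusters. Bins of 1 Mb held 11 to 33 regions, with a median of 21.5. The fullest were 9 to 10 Mb with 33, 16 to 17 Mb with 32 and 12 to 13 Mb with 31, which hold nAChRalpha6, mtgo and bun. The emptiest was 10 to 11 Mb with 11 regions, none of them in all 6 libraries although the bin has 219 genes, followed by 1 to 2, 17 to 18 and 20 to 21 Mb with 14 each. Regions and number of genes per bin were unrelated in order (Spearman's rho 0.00283, 22 bins, a description). Between regions and the percentage of a bin covered by genes, rho was 0.209. Mean peaks per bin in lead and control followed each other (rho 0.9502).

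**Figure D5:**
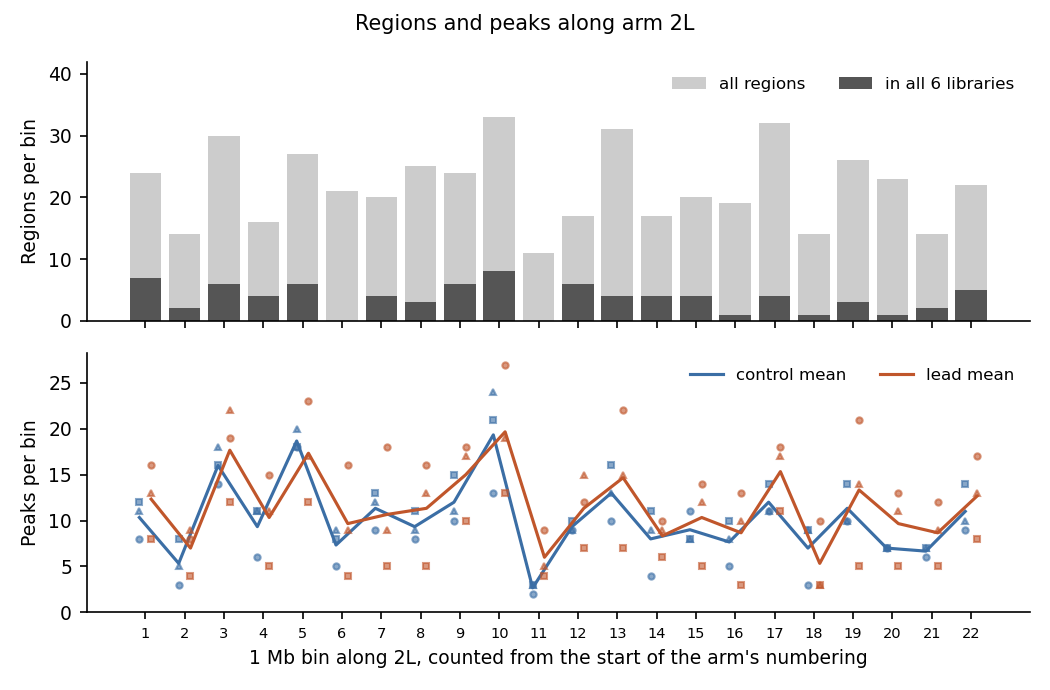
Top, merged regions in each 1 Mb bin of 2L (grey) and those in all 6 libraries (dark); bottom, peaks per bin in each library (points, shapes are replicates 1 to 3 as circle, square and triangle) with the group means as lines. Bins hold 11 to 33 regions, and the order of the bins is alike in lead and control means (rho 0.9502).

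Bin by bin, the range of lead counts met that of control counts everywhere except at 10 to 11 Mb, with 2, 3 and 3 in control and 9, 4 and 5 in lead replicates 1 to 3. In the fullest bin, 9 to 10 Mb, they were 13, 21 and 24 in control and 27, 13 and 19 in lead. These bins were not tested singly.

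Runs of at least 3 regions with gaps of at most 10 kb numbered 34 and held 132 of the 480 regions (27.5%), against 37.4%, 33.6% and 53.7% of the regions of 3L, 3R and X, where regions are also denser. Of the largest, 1 lay in nAChRalpha6 at 9796543 to 9814161, with 7 regions in 17.6 kb. It held 4, 6 and 6 regions in control and 6, 4 and 3 in lead replicates 1 to 3. Another 7 lay in lilli at 2902569 to 2945372, with 4, 3 and 4 in control and 4, 2 and 7 in lead. Runs of 6 regions lay in bru1 at 12273136 to 12288853 (1, 3 and 2 in control, 5, 1 and 6 in lead), again in nAChRalpha6 at 9861265 to 9882556 (1, 2 and 2 in control, 6, 1 and 2 in lead), and at 6915933 to 6940118 over x16, CG32829, nop5, Hrb27C and CG18304 (2, 4 and 4 in control, 6, 1 and 2 in lead). Bsg held a run of 5 in 12.3 kb at 8104109 to 8116409. In each of these runs the groups overlapped.

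A shorter run lay in crol, with 4 regions in 6.78 kb, 3 of them in all 6 libraries. It was singled out after its values were seen. Next to it on the arm is Pde1c, a calmodulin-dependent phosphodiesterase, with a region at 11829929 to 11830251 that lay within 1 kb of esc, a Polycomb-group gene. This region was in all 6 libraries, with a mean percentile of 68.03.

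Gene groups of the nervous system were then counted on 2L, from lists chosen with earlier results of these data known. They were not tested. All list counts below, with 1 kb on either side of a gene, are to be read beside those of all 2L genes. Of these, 9.66% had a peak and 2.81% had one in all 6 libraries. For genes above 3408.5 bp, 24.9% had a peak. That class runs up to 162060 bp and is not matched to the lengths of any list, so a share above 24.9% is not read as an excess. Axon guidance and adhesion genes had a peak in 20 of 36 members (55.6%), and 5 in all 6 libraries. Their median length was 40548 bp, against 1482 bp for all 2L genes. tutl and bdl, neighbouring immunoglobulin-superfamily genes that share 1 region, ed, an echinoid-family adhesion protein, and Lar were marked in all 6. The shared region overlapped tutl and lay within 1 kb of bdl without overlapping it. beat-IIIa was marked in 1 lead and 3 control libraries and beat-Ic in 2 and 0. More lead libraries marked 5 of the 20, fewer 6 and as many 9.

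Of 24 transmitter receptor and ion channel genes, with a median length of 4042 bp, 6 had a peak (25%). nAChRalpha6, nAChRalpha5 and Shaw, a voltage-gated potassium channel, were marked in all 6 libraries, the last at 3726394 to 3726696 with a mean percentile of 75.7. nompC, the mechanotransduction channel of touch and hearing organs, was marked in 3 lead and 2 control libraries. Piezo, another mechanosensitive channel, was marked in 2 and 0, at 8174935 to 8175215. None of GluRIIA, GluRIIB and GluRIIC, subunits of the muscle glutamate receptor, nor any of the 9 ppk sodium channel genes of the list had a peak.

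Second messenger and memory genes had a peak in 6 of 12 members (50%), 5 of them in all 6 libraries, and a median length of 15245 bp. These 5 include Plc21C, crol, Pde1c and Pka-C1, the catalytic subunit of protein kinase A, whose region at 9682289 to 9682586 had a mean percentile of 92.0. The zinc-finger transcription factor crol is on this list and is counted again below among developmental transcription factors. Ac3, an adenylyl cyclase, had a peak in 1 lead library. Of 7 genes listed under synaptic vesicles and release, with a median length of 8864 bp, 2 had one (28.6%). These were Syt1 (all 6 libraries, 5 regions) and Nlg2, a neuroligin (1 lead and 3 control libraries).

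Developmental transcription factors, with a median length of 11854.5 bp, had a peak in 17 of 38 members (44.7%) and in all 6 libraries in 4, namely lilli, pdm2, crol and Lim3. tup was marked in 1 lead and 3 control libraries and Hr38, a nuclear receptor, in 2 and 0. Of 16 genes of the Wnt, BMP, Notch, Hedgehog and Egfr pathways, with a median length of 13869 bp, 5 had a peak (31.2%). Of these, grk, an Egfr ligand, and ed were marked in all 6, Wnt4 in 2 lead and 3 control libraries, and S, which encodes Star, in 2 and 2. The region counted for grk, at 8430323 to 8430817, overlapped Akap200 and lay within 1 kb of grk without overlapping it. The gene ed is also on the axon guidance and adhesion list. Neither dpp nor wg, the BMP and Wnt ligands, had one.

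Among 12 chromatin genes, with a median length of 3941.5 bp, 3 had a peak (25%): esc was marked in all 6 libraries, Lam, a lamin, in 2 lead and 2 control, and chm, a histone acetyltransferase, in 1 and 0. The region counted for esc overlapped Pde1c and lay within 1 kb of esc without overlapping it. Mt2 had no peak in any library, nor did escl, a paralogue of esc. None of the 9 metal handling and redox genes of the list that lie on 2L had a peak, among them the zinc transporters ZnT33D and ZnT35C and the oxidase Duox, and their median length was 4567 bp. Of 11 genes on a list of eye, phototransduction and related genes, with a median length of 6643 bp, 3 had a peak (27.3%). These were eys in 1 lead and 1 control library, vri in 1 and 0 and Ggamma30A in 0 and 1. Muscle and basement membrane genes, with a median length of 12691 bp, had 3 of 8 (37.5%). Mhc, the myosin heavy chain, was marked in 2 lead and 3 control libraries, Col4a1 in 3 and 2, and Msp300 in 1 and 1. Germline genes, with a median length of 3658 bp, had 4 of 13 (30.8%), with grk and CycE in all 6, BicD in 2 and 1, and vas in 1 and 0. Here grk counts again through the same region in Akap200.

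Among 4 families of shorter genes, shares differed. Chemosensory receptor and odorant-binding genes had 1 of 32 (3.12%), Or24a, in 1 lead and 1 control library, with a region 894 bp from the gene. Cytochrome P450 genes had 1 of 14 (7.14%), Cyp309a2, in 2 and 2. C-type lectins had 2 of 12 (16.7%), lectin-21Ca in all 6 libraries and lectin-28C in 2 lead and 0 control. The region counted for lectin-21Ca overlapped CG2839 and lay within 1 kb of lectin-21Ca without overlapping it. Transfer RNA genes had 2 of 41 (4.88%). tRNA:Pro-AGG-1-4 was marked in 2 lead libraries and 1 control library, and tRNA:Tyr-GTA-1-3 in 1 lead library. Both counted only through the 1 kb on either side, and neither gene itself held a peak. The region of the first, at 14600474 to 14601662, overlapped osp, and that of the second lay 955 bp away. Their median lengths ran from 72 to 2090.5 bp, in the range where 3.49% to 5.57% of 2L genes had a peak. The lectin and P450 shares, of 2 genes and 1 gene, lay above that range.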

How the data were processed

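The submitters' processing notes name cutadapt, Bowtie2 2.1.0 and the build dm6. The authors deposited 1 peak list per library. No source used here names the peak caller or its cutoff. The deposited score is the authors' whole number per peak, of unstated meaning. Here it served to rank and filter peaks within one list. Rows that repeat the coordinates of an earlier row (452 to 1563 per list) were dropped. Coordinates are 1-based. Reads per library are unknown, so no floor can be given for a missing peak.

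Peaks overlapping by at least 1 bp were merged. Genes (17807 with 1 nuclear arm, RefSeq, Release 6) were counted with 1 kb on either side. The table gives no strand, exons or sequence, so none is shown and the promoter part of the naming rule was not run.

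The members and lists were chosen with earlier results of these data known. Lead and control means were compared by permuting the 6 library labels exactly (20 assignments; smallest two-sided p 0.1), arms by exact sign flips within libraries (64), peak sets over 10 splits, with Benjamini-Hochberg adjustment. Nothing in the labels states that the replicates are separate groups of flies, so a p-value here measures the spread between these libraries, possibly a technical one. Heads hold many cell types, and a mark in few cells and a weak mark in many cannot be told apart.

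Named were lead-only and control-only regions and genes, the 10 highest and 3 lowest regions in all 6 libraries by their lowest percentile, the 5 widest, the 8 genes with most regions, the 6 largest runs, the 3 fullest and emptiest bins, and per list up to 4 members marked in most libraries and up to 2 with the largest difference. Alternatives were a score of at least the median of 47, the 1379 highest peaks of each list, leaving out each library, 2L to 20 Mb, merging across 100 bp, gene bodies alone, other cluster gaps and the replicate block. Leaving out X was added after seeing the data. Functions were tested on simulated peak lists. The software was scipy 1.17.1 and pandas 2.3.3 on Python 3.11.15, with numpy 2.4.6 for arrays and matplotlib 3.10.9 for plots.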

Additional observations from a re-analysis of the deposited data

How the results depend on the processing

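Of 140 alternative values, 83 kept their direction and side of the threshold or stayed within 1.5 times the count. This tally is not a measure of robustness, because part of it was fixed in advance. The replicate block repeats the main differences. Group comparisons, with a smallest p of 0.1, cannot change side of the threshold of 0.05. The 18 values that only changed side of it were arm differences with 1 library left out, where the smallest p is 0.0625. Leaving out each library in turn gave differences of -14.2 to 85.8 peaks, -2.99 to 29.2 kb, -0.350 to 0.0861 points of share, -4.11 to -1.91 in score percentile, 0.490 to 1.75 points in genes and -0.0217 to 0.0264 in Jaccard index. Density on 2L stayed below 3L by -4.59 to -4.00, 3R by -2.64 to -2.21 and X by -15.8 to -10.3 peaks per Mb, but no p can fall under 0.0625 with 5 libraries. The leave-one-out counts, in which a region needs one library less to qualify, were 3 to 23 for lead-only regions and 3 to 11 for control-only regions. For genes they were 1 to 14 lead-only and 0 to 6 control-only. Clusters numbered 26 to 33.

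With a score of at least 47, the percentile difference turned to 4.78, lead-only and control-only regions and lead-only genes numbered 0, and clusters 6. With equal numbers of peaks, the differences turned to -9.67 peaks, -1.82 kb and 1.81 in percentile; lead-only regions and genes numbered 0, control-only genes 2 and clusters 10. Fewer peaks enter both settings; beyond that the cause was not tested. Cluster gaps of 5 and 20 kb gave 17 and 52 clusters. Leaving out X turned the share difference to 0.0779 points.

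The labels do not say whether replicate numbers pair the samples. On 2L, correlations of deviations were -0.0280, 0.00118 and 0.0551 for equal numbers. For unequal numbers they ran from -0.100 to 0.0999, so equal numbers did not stand out. The replicate block leaves every difference as it is (31.7 peaks, 11.1 kb, -0.194 points, -2.98, 1.13 points and -0.00321); the sign-flip p was 0.75 for the number of peaks, and the smallest possible is 0.25.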
